A study of Homo sapiens with 8 samples.

Results

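The genes described here are 33 genes of the endoplasmic reticulum (ER) protein folding, ER-associated degradation and unfolded protein response pathways, named in a list by symbol and matched to the Ensembl identifiers of the count files. All 33 were found among 60652 gene rows, and all 33 were among the 16606 genes that passed the filter on low counts. They comprised 5 stress sensors and transcription factors, 16 chaperones and folding enzymes, 8 degradation factors, and 4 genes of translocation, traffic and the ER membrane. The study measured poly(A) messenger RNA in human HEK293T cells, an established line from embryonic kidney, and gave 8 libraries. In every group the cells carried a TRE3G-GFP reporter. In all groups the cells grew in medium with 10% serum, received plasmids for an activator and a guide RNA, and were sorted for mCherry and BFP fluorescence 2 days later. Each of the 4 groups held 2 libraries. The first activator was dCasMINI-VPR, a miniature Cas protein without nuclease activity fused to the VPR activation domain, and its guides were a non-targeting control (sgNT) and one named Tet (sgTet). The other was dCas12a-VPR, a bigger nuclease-dead Cas protein that carries VPR too, whose guides were likewise non-targeting (crNT) or Tet (crTet). No group was left without transfection, so each comparison is between transfected and sorted cells. The labels do not say whether the replicates were separate transfections, so p-values measure the spread between these libraries, which may be technical. The files of the 2 activators carry different name series, and no source used here says what the series mean. A difference between activators cannot be told apart from one between these series.

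Secreted and membrane proteins fold in the ER with the help of chaperones, and proteins that fail to fold are carried back to the cytosol and degraded. When unfolded proteins build up, sensors in the ER membrane signal to the nucleus. IRE1, the product of ERN1, splices the XBP1 messenger RNA so that it encodes an active transcription factor. ATF6 is cut in the Golgi and releases a transcription factor, and PERK, the product of EIF2AK3, slows translation and raises ATF4. These factors raise chaperone and degradation genes in many cell types. Counts of reads per gene cannot show the splicing of XBP1, the cutting of ATF6 or the phosphorylation of any sensor.

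Many of these genes are known for ER stress response elements near their start sites, so the elements are shown first. RefSeq promoter windows (GRCh38.p14, 300 bases, from 250 before to 50 after a start site) were found for 29 of the 33 genes, in 37 windows. Exact matches were sought on both strands for the element ERSE (CCAAT, any 9 bases, CCACG), for ERSE-II (ATTGG, any 1 base, CCACG) and for the UPRE core (TGACGTG). An ERSE was found in 7 of the 29 genes (24.1%), against 25 of all 27305 genes with a window (0.0916%). Since the genes are known for such elements, a high share was to be foreseen, and the motif shares given here are no test. The sites are printed to show the letters found. Their fixed letters are alike because the search required it, and the letters between were free to differ. HSP90B1 holds a pair of these sites, and the same CANX site lies in 3 overlapping windows. Capitals mark the fixed letters of the motif, and each site is read 5′ to 3′ on the strand that carries it.
XBP1, chr22:28800603-28800621, minus strand: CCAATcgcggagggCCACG
HSPA5, chr9:125241391-125241409, minus strand: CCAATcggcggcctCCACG
HSP90B1, chr12:103930216-103930234, plus strand: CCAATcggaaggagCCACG
HSP90B1, chr12:103930321-103930339, minus strand: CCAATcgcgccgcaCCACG
CALR, chr19:12938384-12938402, minus strand: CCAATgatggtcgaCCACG
CANX, chr5:179698778-179698796, plus strand: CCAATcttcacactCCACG
PDIA6, chr2:10812853-10812871, minus strand: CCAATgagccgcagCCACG
CRELD2, chr22:49918554-49918572, minus strand: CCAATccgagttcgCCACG
ERSE-II was found in 3 of the 29 genes (10.3%), against 19 of all genes with a window (0.0696%), and HYOU1 held the same 11 letters at both of its sites.
SDF2L1, chr22:21642114-21642124, minus strand: ATTGGtCCACG
HYOU1, chr11:119057380-119057390 and chr11:119057274-119057284, plus strand: ATTGGaCCACG
HERPUD1, chr16:56932025-56932035, plus strand: ATTGGgCCACG
The UPRE core stood in DNAJC10, HYOU1 and SEC61A1, 3 of the 29 genes (10.3%), against 654 of all genes with a window (2.40%). The match in HYOU1 overlaps its farther ERSE-II. By role, an ERSE or ERSE-II was found in 8 of 15 chaperones and folding enzymes, 1 of 5 sensors and transcription factors, 1 of 6 degradation factors and 0 of 3 translocation and traffic genes. A match describes these letters only, and was not tested as a binding site.

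The stretch from 250 to 31 bases before the start site is given for 2 of the genes on which the results turn. The exact ERSE is in capitals. The XBP1 transcript was lower in crTet and in sgNT than in the same crNT libraries, and the HSPA5 transcript was higher in sgNT than in crNT.
XBP1, chr22:28800600-28800819, minus strand: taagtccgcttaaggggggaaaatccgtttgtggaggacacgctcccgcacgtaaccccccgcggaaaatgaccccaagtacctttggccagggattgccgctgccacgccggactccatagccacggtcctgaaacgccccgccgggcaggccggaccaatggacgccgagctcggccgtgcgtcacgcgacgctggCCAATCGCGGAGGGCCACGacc
HSPA5, chr9:125241374-125241593, minus strand: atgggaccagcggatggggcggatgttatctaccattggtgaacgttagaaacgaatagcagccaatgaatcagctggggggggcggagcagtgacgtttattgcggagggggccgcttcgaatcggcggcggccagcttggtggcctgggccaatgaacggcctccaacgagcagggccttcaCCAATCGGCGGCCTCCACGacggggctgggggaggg
In XBP1 the element covered bases 52 to 34 before the start site, and in HSPA5 bases 66 to 48.

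Reads counted in genes ranged from 17474404 to 21081942 in the 8 libraries, and 3 reads corresponded to between 0.142 and 0.172 CPM, the counts scaled to a common library size. Counting error is all that this floor covers. The reporter checked the labels: EGFP stood at 3.22 and 4.42 CPM in sgNT against 919 and 1092 in sgTet, and at 2.76 and 2.66 in crNT against 803 and 707 in crTet. All 5 markers of the HEK293 line were detected, and their summed level was 275 and 290 CPM in crNT against 325 to 427 in the other libraries. Of the markers of large secretory cells, which hold much ER, MZB1 and PRSS1 had no read in any library, and the 6 listed genes summed to at most 1.28 CPM. The blood gene PTPRC had none, and the 3 blood genes summed to at most 1.15 CPM and the 3 endothelial genes to at most 0.623. COL1A1, a fibroblast gene, reached 44.3 CPM, while the other fibroblast genes COL1A2 and LUM stayed at or under 1.44. The crNT libraries stood apart in their reads: 14.4% and 12.7% of their reads were unmapped against 8.32 to 9.62% in the other 6, and 1.49% and 1.46% fell outside genes against 1.85 to 2.23%.

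Levels between genes are compared as CPM per kilobase of exon (GENCODE release 29), which counts every annotated exon and so understates genes with long rarely used exons. The ER Hsp70 chaperone HSPA5 (BiP) was the most abundant member, at 608 ± 76.6 CPM per kilobase (SD over all 8 libraries). The lectin chaperone CALR followed at 378 ± 25.8, the membrane-bound lectin chaperone CANX at 253 ± 21.2 and the disulfide isomerase PDIA4 at 225 ± 15.9. HSPA5 and CALR each lay above the next gene in all libraries, whereas the ranges of CANX and PDIA4 overlapped. The sensors were far lower, with ATF6 at 12.5 ± 0.974, EIF2AK3 at 3.21 ± 0.500 and ERN1 at 1.77 ± 0.213 CPM per kilobase, and the last 2 did not overlap. XBP1, the target of the IRE1 nuclease, stood at 82.4 ± 16.6, between the isomerase PDIA6 and the secreted factor MANF. DERL3 was lowest of the 33 by this measure, at 0.503 ± 0.152. However, 77.0% of its exon bases overlap a gene on the other strand, and reads shared by genes are set apart as ambiguous. Its level and its place in the order may thus be understated. From P4HB, next after PDIA4, to XBP1, each gene's range overlapped that of the next in order. The same held from HYOU1 to SELENOS and from CREB3L2 to EDEM1, so the order within these stretches is not resolved.

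**Figure D1:**
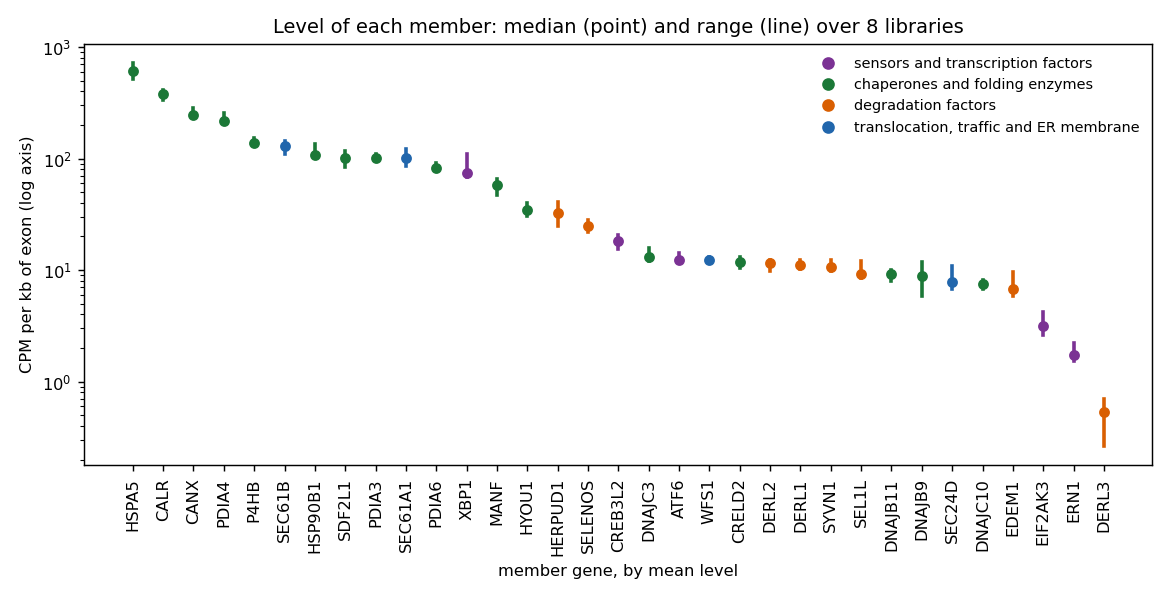
Levels of the 33 genes in CPM per kilobase of exon on a log axis, in order of their mean, with the median over 8 libraries as a point and the range as a line. Chaperones fill the upper end, led by HSPA5 with a mean of 608, and EIF2AK3, ERN1 and DERL3 the lower end.

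The first question was whether these genes moved when the reporter guide replaced the non-targeting guide with dCas12a-VPR (crTet minus crNT). Of the 33 genes 11 fell (33.3%) and none rose, at a Benjamini-Hochberg adjusted p under 0.05 in edgeR's quasi-likelihood test over all 16606 genes. Across all genes tested, 2.75% were called lower and 3.56% higher. The genes that fell included the transcription factor XBP1, the degradation factors HERPUD1, EDEM1, SEL1L and DERL2, and the coat protein SEC24D, and their log2 fold changes lay between -0.55 and -0.23. By role, 1 of 5 sensors and transcription factors, 4 of 16 chaperones, 4 of 8 degradation factors and 2 of 4 translocation and traffic genes fell. The median log2 fold change was -0.17 over the 33 genes against 0.01 over all genes, and 27 of the 33 were below 0. At an unadjusted p under 0.05, 18 were lower and 1 was higher, against 9.35% and 10.4% of all genes, and DESeq2 called 13. In bulk RNA, fewer cells with a transcript and less of it per cell cannot be told apart.

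XBP1 (chr22:28794555-28800597, hg38, minus strand) stood at 335 and 320 CPM in crNT and at 225 and 227 in crTet. In the dCasMINI-VPR groups it was 249 and 222 in sgNT and 206 and 209 in sgTet. Both crNT libraries lay above the other 6, and the 2 dCas12a-VPR groups did not overlap. Its log2 fold change was -0.53 ± 0.07 (SE; adjusted p = 2.45e-05), a level 30.9% lower. This call held when each library was left out in turn, with an adjusted p of at most 0.00535. A pseudogene, XBP1P1, carries a similar sequence.

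ATF6, which releases its own transcription factor domain, was at 107 and 111 CPM in crNT and 94.0 and 90.5 in crTet, and its log2 fold change of -0.25 ± 0.08 missed the threshold (adjusted p = 0.0710). ERN1 was at 24.3 and 19.9 CPM in crNT against 16.7 and 18.5 in crTet (log2 -0.32 ± 0.14, adjusted p = 0.174). EIF2AK3 was at 19.0 and 22.7 CPM in crNT against 18.7 and 14.8 in crTet (log2 -0.32 ± 0.15, adjusted p = 0.234). Each of these sensors had both crNT libraries above both crTet libraries, though for EIF2AK3 the gap between 19.0 and 18.7 was small beside the spread within groups. The log2 fold change of CREB3L2, a membrane-anchored transcription factor related to ATF6, was -0.15 ± 0.08 (adjusted p = 0.321). Removing either sgTet library from the fit, neither of which is in this comparison, brought ATF6 past the threshold (adjusted p = 0.0153 and 0.0149).

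Among the chaperones, HSPA5, the chaperone that binds the sensors at rest, was at 2109 and 2060 CPM in crNT and 2397 and 2021 in crTet. Its crTet libraries lay on either side of the crNT libraries, and the log2 fold change was 0.08 ± 0.08 (adjusted p = 0.629). The chaperones that fell were other genes. HYOU1, a large Hsp70-like chaperone that acts as an exchange factor for BiP, went from 309 and 288 CPM to 237 and 239 (log2 -0.33 ± 0.07, adjusted p = 0.00453). DNAJC3, a J-domain co-chaperone, went from 85.8 and 88.2 to 72.0 and 67.7 (-0.32 ± 0.09, adjusted p = 0.0242). DNAJB9, a J-domain co-chaperone that favours the resting state of IRE1, went from 33.6 and 32.2 to 23.6 and 24.5 (-0.45 ± 0.13, adjusted p = 0.0285). CANX went from 1733 and 1668 to 1462 and 1441 (-0.23 ± 0.07, adjusted p = 0.0399). None of these 4 overlapped between the groups. The other 12 chaperones and folding enzymes, HSPA5 among them, had log2 fold changes from -0.20 for P4HB, an isomerase (adjusted p = 0.0605), to 0.15 for SDF2L1 (adjusted p = 0.346).

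HERPUD1, an ER membrane protein of the degradation complex, was at 204 and 189 CPM in crNT and 151 and 129 in crTet (log2 -0.49 ± 0.10, adjusted p = 0.00359). EDEM1, which directs misfolded glycoproteins to degradation, was at 64.6 and 57.2 against 45.3 and 43.8 (-0.45 ± 0.10, adjusted p = 0.00523). SEL1L, the adaptor of the ubiquitin ligase SYVN1, was at 114 and 105 against 85.9 and 80.8 (-0.39 ± 0.08, adjusted p = 0.00381). In all 3 the groups were well apart. DERL2, a derlin of the membrane channel, was at 78.5 and 77.3 against 62.0 and 65.1 (-0.29 ± 0.09, adjusted p = 0.0457). SYVN1 itself (HRD1) did not pass and lay the other way, at 0.20 ± 0.10 (adjusted p = 0.245). The derlin DERL3 had 81 reads in crNT (2.25 and 1.82 CPM) and 87 in crTet (2.63 and 1.70 CPM). Of its exon bases 77.0% overlap SMARCB1 on the other strand. Counts without strand cannot assign reads there, and the count files set such reads apart as ambiguous. SELENOS, a membrane protein that recruits the VCP segregase, and DERL1 were at -0.25 ± 0.09 (adjusted p = 0.0812) and -0.13 ± 0.09 (adjusted p = 0.440).

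SEC24D, a cargo adaptor of the COPII coat on vesicles that leave the ER (chr4:118722823-118838683, hg38, minus strand), was at 108 and 105 CPM in crNT and 78.2 and 67.2 in crTet. In sgNT it was at 76.7 and 69.5 and in sgTet at 78.5 and 70.7. The other 6 libraries overlapped one another, and the crNT libraries stood above them. Its log2 fold change was -0.55 ± 0.09 (adjusted p = 2.89e-04), and at most 0.0199 with any 1 library left out. SEC61A1, the channel subunit of the translocon, was at 570 and 530 against 424 and 439 (-0.35 ± 0.07, adjusted p = 0.00262). SEC61B, a smaller subunit of the same channel, was at 0.04 ± 0.09 (adjusted p = 0.856), and WFS1, an ER membrane protein tied to calcium balance, at -0.11 ± 0.10 (adjusted p = 0.595).

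Of these 11 calls 9 were lost when some single library was left out, while the log2 fold changes stayed of like size: between -0.40 and -0.30 for SEC61A1, -0.45 and -0.33 for SEL1L, -0.61 and -0.38 for HERPUD1 and -0.53 and -0.36 for EDEM1. Without crNT replicate 1, XBP1 and SEC24D alone kept their calls. Without crTet replicate 2, the calls on HERPUD1, EDEM1 and SEL1L were among those lost. Leaving out crNT replicate 2 or crTet replicate 1 lost DNAJB9, DNAJC3, CANX and DERL2. Calls over all genes also became fewer in each of these fits, so the losses are not particular to the 33. The median log2 fold change over the 33 stayed between -0.21 and -0.18 in them. CANX and DERL2 were also lost without sgNT replicate 1 or sgNT replicate 2. Removing the trend of counts on exon length and GC content lost CANX, DNAJC3 and DERL2 (adjusted p = 0.137, 0.0812 and 0.135).

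**Figure D2:**
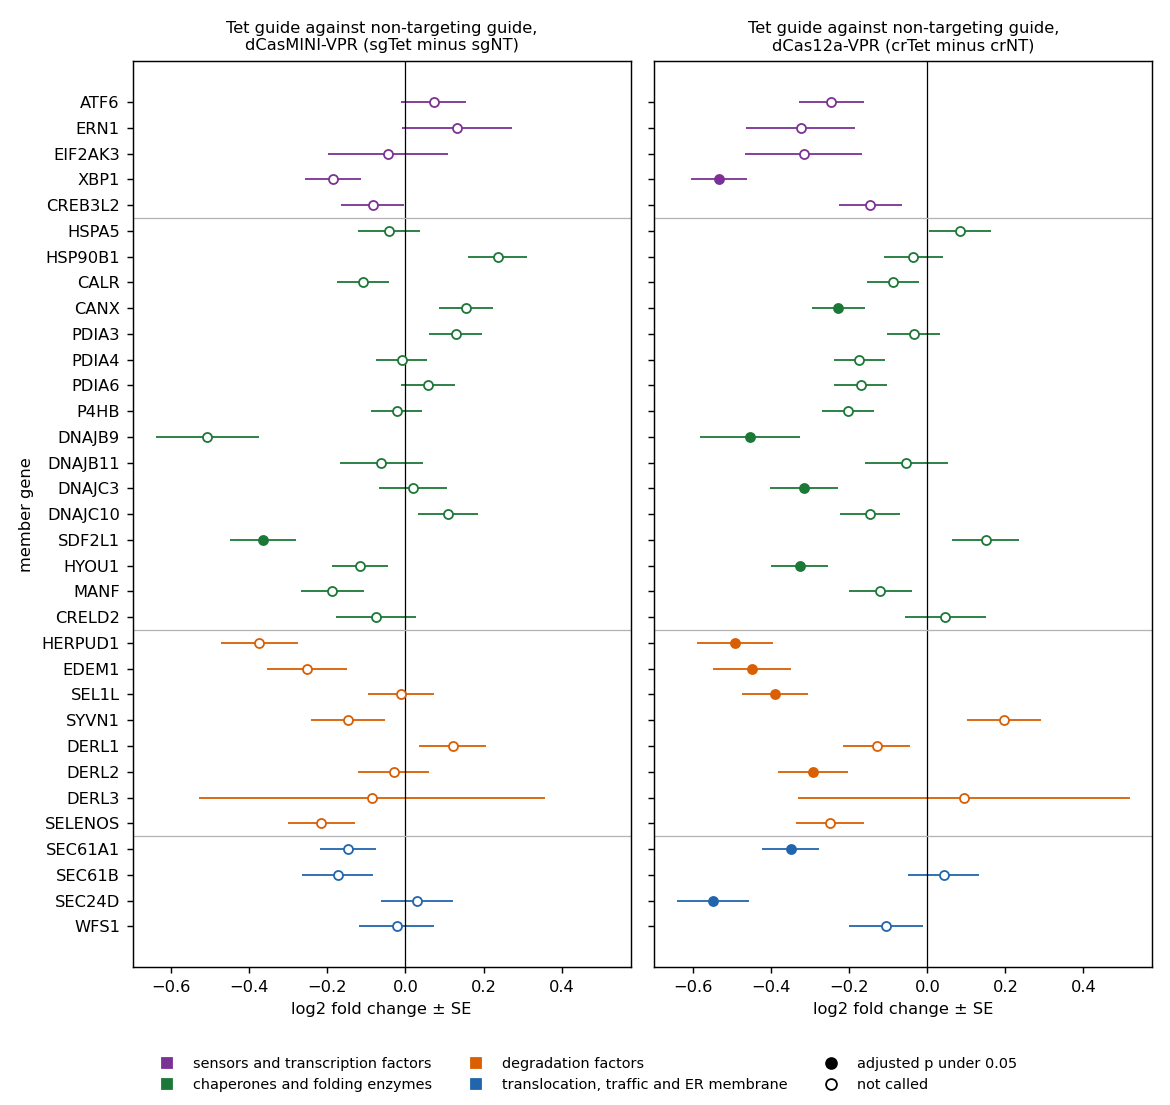
Log2 fold change ± SE of each gene for the Tet against the non-targeting guide, with dCasMINI-VPR on the left and dCas12a-VPR on the right, filled where the adjusted p is under 0.05. With dCas12a-VPR 11 points are filled, all below 0, and with dCasMINI-VPR the filled point is SDF2L1.

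The same guide comparison with dCasMINI-VPR (sgTet minus sgNT) gave 1 gene that fell and none that rose, 3.03% of the 33, against 0.325% of all genes lower and 0.470% higher. The gene was SDF2L1, an ER-resident partner of the J-domain co-chaperone DNAJB11. The median log2 fold change over the 33 was -0.04 against 0.00 over all genes, and 23 of 33 were below 0. At an unadjusted p under 0.05, 7 were lower and 2 higher, against 6.03% and 6.29% of all genes, and DESeq2 called 1. SDF2L1 (chr22:21642261-21644298, hg38, plus strand) was at 129 and 128 CPM in sgNT and 91.8 and 108 in sgTet. Both sgTet libraries were below both sgNT libraries, and differed from each other more than the sgNT libraries did. Its log2 fold change was -0.36 ± 0.09 (adjusted p = 0.0285). Leaving out sgNT replicate 1, sgNT replicate 2 or sgTet replicate 1 ended this call, while its log2 fold change stayed between -0.48 and -0.25 in all alternatives. Without sgTet replicate 2 more of the 33 passed, in both directions, and so did many more of all genes. The median log2 fold change in that fit was 0.03 over the 33 and -0.003 over all genes. Replicates were least alike in sgTet, where the chi-square of their counts per degree of freedom was 13.3. It was 3.87 in sgNT, 3.16 in crNT and 6.74 in crTet. The fit gave each gene an estimate of spread shared by all groups. The counts of 1 and 11 called genes thus rest on the same spread, though the groups differed in theirs.

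The genes nearest the threshold with dCasMINI-VPR were DNAJB9 and HERPUD1. DNAJB9 was at 28.8 and 25.5 CPM in sgNT and 21.5 and 16.7 in sgTet (log2 -0.51 ± 0.13, adjusted p = 0.0595). HERPUD1 was at 211 and 173 in sgNT and 160 and 136 in sgTet (-0.37 ± 0.10, adjusted p = 0.0788). Both genes had all sgTet libraries below the sgNT libraries, and neither passed. XBP1, with sgTet libraries at 206 and 209 below 249 and 222, had a log2 fold change of -0.19 ± 0.07 (adjusted p = 0.269). No sensor passed. ATF6 was at 97.9 and 90.3 CPM in sgNT and 102 and 96.0 in sgTet (0.07 ± 0.08, adjusted p = 0.778), and ERN1 at 17.8 and 17.7 against 19.1 and 19.8 (0.13 ± 0.14, adjusted p = 0.751). EIF2AK3 was at 16.2 and 16.5 against 17.4 and 14.3 (-0.04 ± 0.15, adjusted p = 0.938). HSPA5 overlapped between the groups, at 2686 and 2598 in sgNT and 2802 and 2329 in sgTet (-0.04 ± 0.08, adjusted p = 0.877). HSP90B1, the ER member of the Hsp90 chaperones, had the highest log2 fold change of the 33, 0.24 ± 0.08 (adjusted p = 0.156). DERL3 had 65 reads in sgNT (1.23 and 2.32 CPM) and 68 in sgTet (0.999 and 2.32 CPM), and its libraries overlapped in every comparison of groups.

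**Figure D3:**
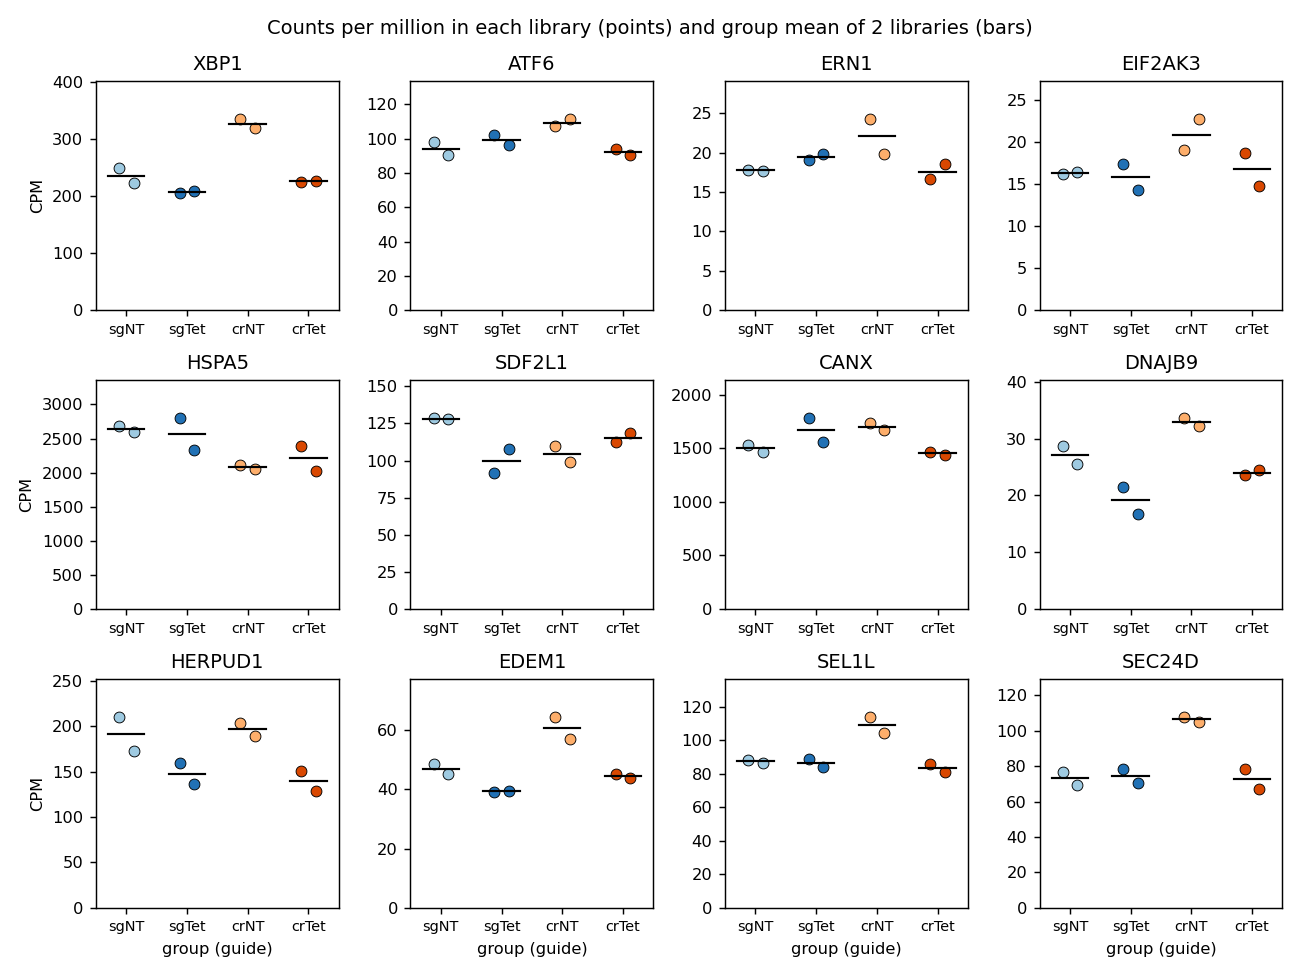
CPM of 12 of the genes in each library (points) with group means (bars), on axes that start at 0. XBP1 and SEC24D show both crNT libraries above the other 6, whereas HSPA5 lies lower in both crNT than in both sgNT libraries and SDF2L1 is highest in sgNT.

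Whether the guide acted differently with the 2 activators was tested as the difference of the guide effects (dCasMINI-VPR minus dCas12a-VPR). It was higher for 2 and lower for 1 of the 33 genes, against 0.506% of all genes higher and 0.843% lower. For SEC24D the difference was 0.58 ± 0.13 (adjusted p = 0.0184), from effects of 0.03 with dCasMINI-VPR and -0.55 with dCas12a-VPR. For CANX it was 0.38 ± 0.10 (adjusted p = 0.0382), from 0.16 and -0.23. For SDF2L1 it was -0.51 ± 0.12 (adjusted p = 0.0258), from -0.36 and 0.15. For XBP1 the difference of 0.35 ± 0.10 missed the threshold (adjusted p = 0.0770), so its fall with dCas12a-VPR was not shown to differ from its value with dCasMINI-VPR. The same held for HERPUD1, EDEM1, SEL1L and DNAJB9, with differences of 0.12 (adjusted p = 0.725), 0.20 (0.534), 0.38 (0.0987) and -0.05 (0.923). The median difference was 0.18 over the 33 against -0.01 over all genes, and at an unadjusted p under 0.05 it was higher for 13 and lower for 2, against 7.52% and 8.36% of all genes.

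The calls on these differences depended on single libraries. SEC24D was lost without sgNT replicate 2 (adjusted p = 0.222), crNT replicate 1 (0.156), crNT replicate 2 (0.0775) or crTet replicate 2 (0.111). SDF2L1 was lost without sgNT replicate 1 (0.0832) or 2 (0.178), sgTet replicate 1 (0.0515), crNT replicate 1 (0.0807) or 2 (0.193), or crTet replicate 2 (0.0825). CANX was lost in every such fit except the one without sgTet replicate 2, with an adjusted p of up to 0.335. With the trend of counts on exon length and GC content removed, the SDF2L1 difference became -0.16 (adjusted p = 0.509) and that of CANX 0.22 (adjusted p = 0.159).

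The next comparison was between the activators, each with its own non-targeting guide (sgNT minus crNT). Activator, guide and name series cannot be told apart in it. Of the 33 genes 2 were higher with dCasMINI-VPR, the chaperones HSPA5 and SDF2L1, and 5 were lower: XBP1, SEC24D, SEL1L, EDEM1 and PDIA4. Across all genes 4.09% were called higher and 3.60% lower. The 2 higher genes made up 6.06% of the 33, which is near the share over all genes. By role, the lower genes were 1 sensor or transcription factor, 1 folding enzyme, 2 degradation factors and 1 traffic gene. The median log2 difference was -0.14 over the 33 against 0.00 over all genes. At an unadjusted p under 0.05, 2 were higher and 16 lower, against 10.6% and 10.5% of all genes, and DESeq2 called 7. This comparison shares the crNT libraries with the crTet comparison above, so a gene that is high in crNT is low in both.

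HSPA5 (chr9:125234853-125241330, hg38, minus strand) was at 2686 and 2598 CPM in sgNT against 2109 and 2060 in crNT. The groups did not overlap, and the log2 difference was 0.34 ± 0.08 (adjusted p = 0.00796), a level 26.7% higher. SDF2L1 was at 129 and 128 in sgNT against 110 and 98.7 in crNT (0.30 ± 0.09, adjusted p = 0.0238). The log2 difference of XBP1 was -0.47 ± 0.07 (adjusted p = 2.85e-05), and that of SEC24D -0.54 ± 0.09 (adjusted p = 1.30e-04), from the library values given above. SEL1L was at 88.1 and 86.7 in sgNT against 114 and 105 in crNT (-0.32 ± 0.08, adjusted p = 0.0137). EDEM1 was at 48.6 and 45.3 against 64.6 and 57.2 (-0.37 ± 0.10, adjusted p = 0.0164). The groups of both degradation genes did not overlap. PDIA4, a disulfide isomerase, was at 699 and 713 against 835 and 802 (-0.21 ± 0.07, adjusted p = 0.0377). For the sensors, ATF6 was at -0.22 ± 0.08 (adjusted p = 0.112), ERN1 at -0.31 ± 0.14 (adjusted p = 0.183) and EIF2AK3 at -0.36 ± 0.15 (adjusted p = 0.160), none of them called.

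XBP1 and SEC24D kept these calls with any 1 library left out, at an adjusted p of at most 0.0189 and 0.0255. HSPA5 lost its call without sgNT replicate 1 (0.0882) or 2 (0.0671) or crNT replicate 1 (0.0682) or 2 (0.0908), while its log2 difference stayed between 0.31 and 0.37. SEL1L was lost without the same libraries (0.0813, 0.195, 0.308 and 0.0519), as were PDIA4 (0.236, 0.274, 0.396 and 0.174) and SDF2L1 (0.141, 0.200, 0.0730 and 0.346), and EDEM1 without sgNT replicate 1 (0.0525) or 2 (0.266) or crNT replicate 1 (0.359). Removing the length and GC trend brought SDF2L1 to 0.10 (adjusted p = 0.435), and ATF6 passed without either sgTet library (0.0329 and 0.0323).

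With the Tet guides (sgTet minus crTet) edgeR called none of the 33 genes, against 1.68% of all genes higher and 2.60% lower. DESeq2 also called 0, and at an unadjusted p under 0.05, 5 were higher and 4 lower, against 8.92% and 9.75% of all genes. The median log2 difference was 0.04 over the 33 and 0.00 over all genes. HSPA5 was at 2802 and 2329 CPM in sgTet and 2397 and 2021 in crTet, which overlap (0.22 ± 0.08, adjusted p = 0.133). HSP90B1 was nearest to the threshold, at 633 and 529 CPM in sgTet and 507 and 473 in crTet (0.25 ± 0.08, adjusted p = 0.0581). MANF, a secreted stress-induced factor, was at 112 and 128 in sgTet and 137 and 150 in crTet (-0.26 ± 0.08, adjusted p = 0.0645). XBP1 was at -0.13 ± 0.07 (adjusted p = 0.369), ATF6 at 0.10 ± 0.08 (adjusted p = 0.559), ERN1 at 0.14 ± 0.14 (adjusted p = 0.641) and EIF2AK3 at -0.08 ± 0.15 (adjusted p = 0.833). Without sgTet replicate 2 many more genes passed among all genes, and genes of the 33 passed in both directions. HSP90B1, HSPA5, CANX and MANF were among them, so these calls are not particular to the 33. DNAJB9 passed without sgTet replicate 1 and HSPA5 without crTet replicate 1. The median log2 difference over the 33 was 0.05, 0.01 and 0.04 in these fits, in the order given.

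**Figure D4:**
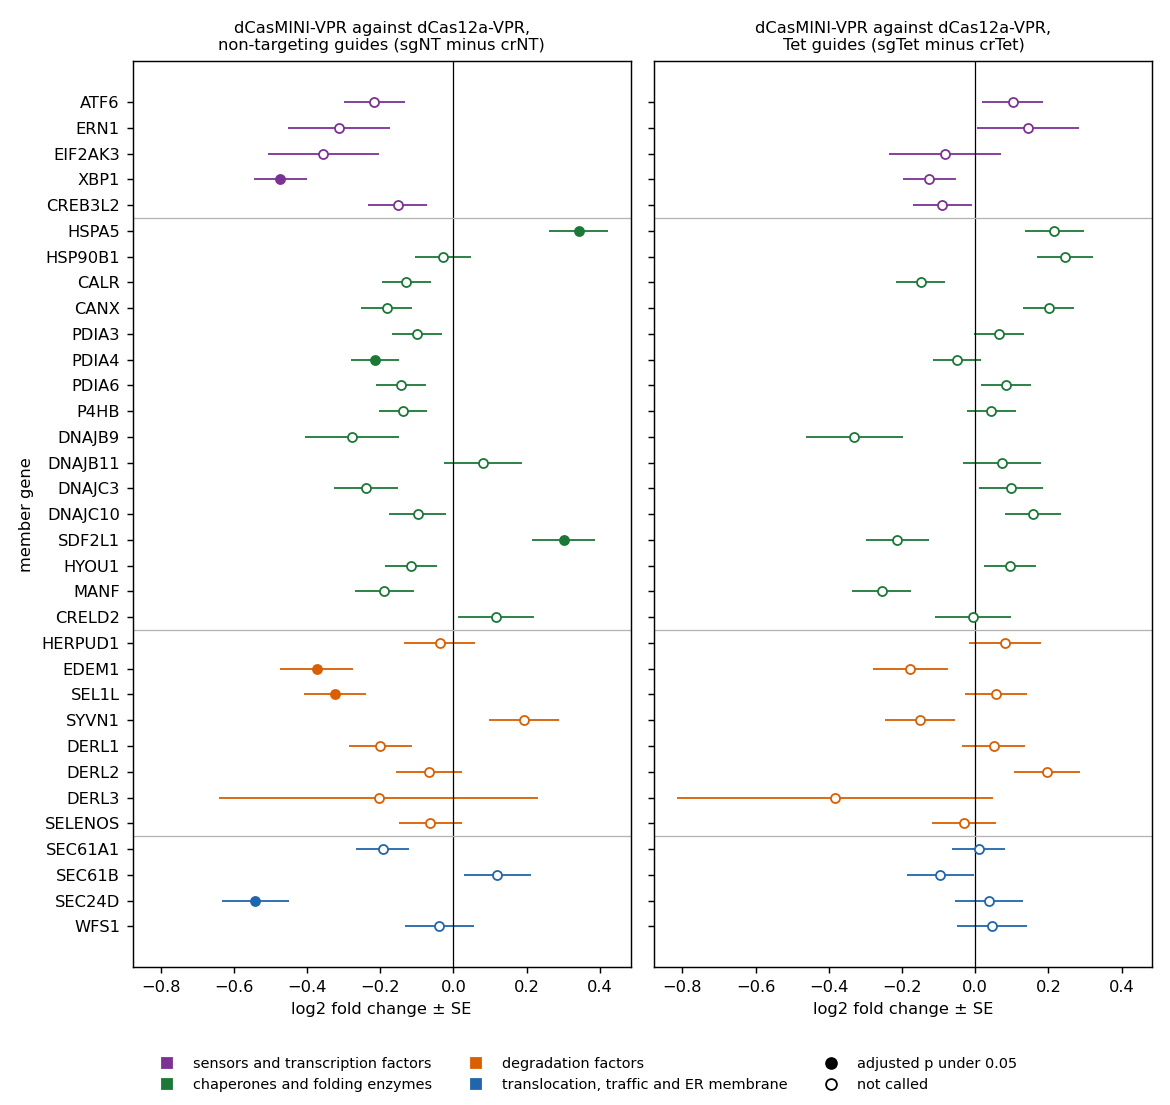
Log2 difference ± SE between dCasMINI-VPR and dCas12a-VPR for each gene, with non-targeting guides on the left and Tet guides on the right, filled where the adjusted p is under 0.05. On the left HSPA5 and SDF2L1 are filled above 0 and 5 genes below 0, and on the right no point is filled.

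Seen across the 4 groups, the crNT libraries were the high ones for most of these genes. Both crNT libraries lay above the other 6 in 19 of the 33 genes, against 12.2% of all genes tested, and both lay below in 0, against 11.6%. The 19 were all 5 sensors and transcription factors, the chaperones and folding enzymes CALR, PDIA4, PDIA6, P4HB, DNAJB9, DNAJC3, HYOU1 and MANF, the degradation factors EDEM1, SEL1L, DERL1 and DERL2, and SEC61A1 and SEC24D. This count was made after the values were seen and has no test. The highest group mean was in crNT for 23 genes, in sgNT for 5, in sgTet for 3 and in crTet for 2, against 30.2%, 20.2%, 27.0% and 22.5% of all genes. The summed level of the 5 sensors and transcription factors was 665 and 645 CPM in crNT against 476 to 543 in the other libraries, and that of the 8 degradation factors 708 and 675 against 555 to 661. The 16 chaperones and folding enzymes, a sum led by HSPA5, did not separate, with 8889 and 8660 in crNT within the 8059 to 9218 of the others. The unmapped and out-of-gene shares and the summed line markers given above move with this pattern, as does the share of mitochondrial messenger RNA, which was 2.41% and 2.47% in crNT against 2.59 to 3.96% in the other libraries. Their part in it was not tested.

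**Figure D5:**
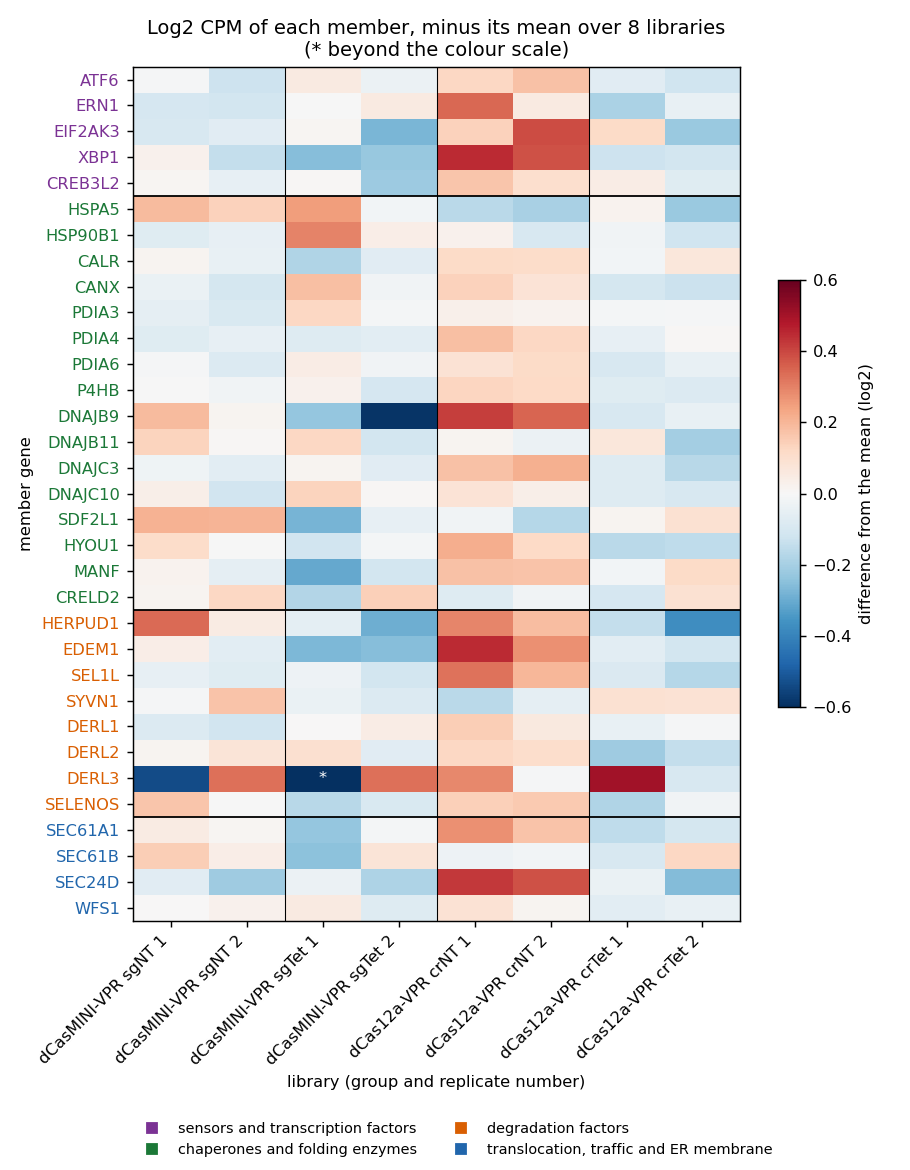
Log2 CPM of each gene in each library, minus the gene's mean over the 8 libraries, with genes ordered by role and the star marking a value beyond the colour scale. The crNT columns are red for most rows except HSPA5, SDF2L1, SYVN1 and a few others, and both sgNT libraries are above the mean for HSPA5 and SDF2L1.

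A further 15 genes are described by their range over all 8 libraries. CREB3L2, HSP90B1, CALR, PDIA3, PDIA6, P4HB, DNAJB11, DNAJC10, MANF, CRELD2, SYVN1, DERL1, SELENOS, SEC61B and WFS1 passed no test in any of the 5 comparisons. Their levels ran from 901 to 1108 CPM for CALR, 685 to 804 for P4HB, 473 to 633 for HSP90B1, 401 to 466 for PDIA3 and 320 to 371 for PDIA6. CREB3L2 lay between 137 and 179 CPM, DNAJC10, a J-domain protein with disulfide reductase activity, between 149 and 176, SEC61B between 130 and 171 and MANF between 112 and 156. SELENOS lay between 83.1 and 106 CPM, DERL1 between 72.6 and 87.0, CRELD2 between 54.3 and 67.6, SYVN1 between 53.4 and 67.4 and DNAJB11 between 45.4 and 57.5. WFS1 was the steadiest of the 33, with its highest library 1.12 times its lowest (52.6 to 59.0 CPM), followed by PDIA3 and PDIA6 at 1.16 each. DERL3 and DNAJB9 varied most, by 2.63 and 2.01 times. For PDIA3 33.3% of exon bases overlap other genes, and reads may also come from its pseudogenes PDIA3P1 and PDIA3P2. Overlaps of 25.2% for PDIA6, 23.2% for DNAJB11, 15.1% for EIF2AK3 and 14.9% for SYVN1 leave their counts less certain too.

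Called genes were found with and without the sites printed above. Of the 10 genes with an ERSE or ERSE-II, 4 fell with the Tet guide and dCas12a-VPR (XBP1, CANX, HYOU1 and HERPUD1; median log2 -0.13), and of the 19 with a window and neither motif 6 fell (median -0.25), against 2.75% of all genes. In the comparison of activators with non-targeting guides, 2 of the 10 were higher and 1 lower, and 0 of the 19 were higher and 3 lower, against 4.09% and 3.60% of all genes. HSPA5 and XBP1, both with an ERSE within 66 bases of the start site, were called in opposite directions there. The HSPA5 call was lost without any 1 of the compared libraries. Whether the sites had a part in any change was not tested.

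Outside the 33, a list of 73 other genes of the pathway was followed, of which 71 could be tested (FKBP2 had 0 to 4 reads a group and NUPR1 0 to 6). With the Tet guide and dCas12a-VPR 13 fell and 2 rose, against 2.75% and 3.56% of all genes, so the count of risers is near the share over all genes. HSPA13, a small Hsp70-like protein of the ER, fell by 0.50 on the log2 scale (adjusted p = 9.14e-05), TRIB3, a target of the PERK arm, by 0.52 (0.00106), the oxidase ERO1B by 0.56 (0.00107) and the translocation protein TRAM1 by 0.38 (0.00125). The risers were PRKCSH, a subunit of glucosidase II (log2 0.27, adjusted p = 0.0209), and the isomerase TXNDC5 (1.22, 0.0202), whose exons largely overlap a readthrough gene. The PERK arm genes ATF4, DDIT3, PPP1R15A and CHAC1 were not called there. With dCasMINI-VPR edgeR called 0 of the 71, and 5 were higher and 5 lower at an unadjusted p under 0.05, which is near the 6.29% and 6.03% of all genes. The difference of the guide effects was called for HSPA13 (0.57, adjusted p = 0.00490), TRAM1 (0.52, 0.00765) and ERO1B (0.59, 0.0405). With dCas12a-VPR, HSPA13 and ERO1B kept their calls with any 1 library left out, TRIB3 and TRAM1 were lost without crNT replicate 1 (0.0726 each), and PRKCSH and TXNDC5 without either crNT or either crTet library (up to 0.259 and 0.203). The differences of HSPA13 and TRAM1 were lost without sgNT replicate 2 (0.0935 and 0.120) or crNT replicate 1 (0.0943 and 0.102), and that of ERO1B in 6 of these 8 fits (up to 0.280), all but those without sgTet replicate 2 or crTet replicate 1.

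Between the activators with non-targeting guides, 16 of the 71 were lower with dCasMINI-VPR and 0 were higher, against 3.60% and 4.09% of all genes. PPP1R15A was among them (log2 -0.31, adjusted p = 0.0133), and they were led by HSPA13 (log2 -0.62, adjusted p = 8.53e-07), ERO1B (-0.69, 3.27e-05), the cargo receptor LMAN1 (-0.33, 0.00265) and the prolyl isomerase FKBP14 (-0.48, 0.00367). With the Tet guides the 1 gene called was PPP1R15A, whose product reverses the block of translation that PERK sets, and it was lower with dCasMINI-VPR (-0.57, adjusted p = 1.43e-05). PPP1R15A was at 91.6 and 94.8 CPM in sgTet and 148 and 129 in crTet. Both crNT libraries lay above the other 6 for 30 of the 71 genes and below for 1, against 12.2% and 11.6% of all genes. The calls of HSPA13 and ERO1B with non-targeting guides and of PPP1R15A with Tet guides held with any 1 library left out. With non-targeting guides FKBP14 was lost without sgNT replicate 2 (0.144) or crNT replicate 1 (0.133), LMAN1 without these (0.168 and 0.0670) or crNT replicate 2 (0.0618), and PPP1R15A without any library compared (0.0925 to 0.216).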

How the data were processed

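RNA was sequenced from 8 libraries in 4 groups of 2, as named in the labels. The authors deposited 1 count table per library, with whole-number counts of reads per Ensembl gene in 3 columns (without regard to strand, and for each strand). STAR and hg38 are named in the submitters' processing notes; the STAR version, the gene annotation release and the role of each tool are not given in the sources used here. The labels' protocols describe oligo(dT) selection and second-strand synthesis without a strand mark, and the strand columns held near-equal shares, so the counts without regard to strand were used. The 4 totals at the head of each table were left out of library sizes.

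Genes were filtered with filterByExpr, scaled by TMM and fitted with edgeR 4.0.16 in R 4.3.3 by robust quasi-likelihood over all 4 groups (16606 genes, 4 residual degrees of freedom, median prior degrees of freedom 28.9, common biological coefficient of variation 8.04%). The 5 contrasts were the guide effect with each activator, their difference, and the difference between activators with each guide, with Benjamini-Hochberg adjustment over all genes and a threshold of 0.05. CPM use the TMM-scaled library sizes (the floor of 3 reads uses unscaled ones), and a prior count of 2 was used for log2 CPM in the plot of all genes by library. Standard errors of log2 fold changes are from the same fit. The 33 genes, the other 73 pathway genes and the marker lists were chosen with earlier results of these data known. By rule, library values were given for XBP1, HSPA5, ATF6, ERN1, EIF2AK3, DERL3 and any gene called in a contrast, and ranges for the others; HSP90B1 and MANF with Tet guides were added after their values were seen. Other pathway genes were named up to 4 a contrast and direction by smallest adjusted p. Other genes named with values, and the count of genes high in crNT, were chosen after their values were seen. Positions and exon lengths are from GENCODE 29 (58405 of 60652 gene rows had a position and 60482 a symbol). Guide and protein sequences were not analysed here.

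Depth was 17474404 to 21081942 gene reads. The fit was tested on simulated counts for the guide effect with dCasMINI-VPR (16068 genes) and with dCas12a-VPR (16083 genes). With dCasMINI-VPR 76% of genes changed 1.5-fold and 100% of those changed 2-fold were recovered, and with dCas12a-VPR 81% and 98%. In these simulations 16 and 7 unchanged genes were called. Every simulated gene had the common coefficient of variation in all groups, and only genes above a set level were changed. The recovery therefore does not carry over to smaller changes or to the unequal replicate spread of these data. Replicates of a group differed beyond sampling noise in all 4 groups and were kept as separate samples. Alternatives were DESeq2 1.42.0 and its size factors, scaling by library size, no filter, counts by strand, and fits on the compared groups alone. Others were a replicate block, removal of the trend on exon length and GC content, and leaving out each library.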

Additional observations from a re-analysis of the deposited data

Results flagged for a closer look

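For 3 of the 33 genes the effect of the Tet guide differed between the activators by a test of the difference itself. The test was edgeR's interaction contrast, adjusted over all 16606 genes. Of the 3 genes, SEC24D had both crNT libraries above the other 6, as did 12.2% of all genes tested, and CANX and SDF2L1 did not. What set the crNT libraries apart was not tested. The guide effect with dCasMINI-VPR minus that with dCas12a-VPR was 0.58 on the log2 scale for SEC24D (adjusted p = 0.0184), 0.38 for CANX (adjusted p = 0.0382) and -0.51 for SDF2L1 (adjusted p = 0.0258). Each call was lost in at least 4 of the 8 fits that left out 1 library, as given in the report.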

How the results depend on the processing

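Over the 33 genes and 5 contrasts, 22 log2 fold changes were called. Of 383 values of these 22 under the alternatives, 292 kept the call, 91 lost it and 0 changed sign. Of 2449 values of the 143 not called, 98 gained a call. A further 114 changed sign and were called neither before nor after. For the 35 calls on other pathway genes, 462 of 606 values kept the call, 144 lost it and 0 changed sign. XBP1 and SEC24D kept their calls for the Tet guide with dCas12a-VPR and for non-targeting guides in every alternative run. The count of genes called moved by more than 1.5 times as follows. For the guide effect with dCasMINI-VPR it went from 132 to 276 with no filter, 84 in the compared groups alone and 202 with the length and GC trend removed. With dCas12a-VPR it went from 1049 to 661 on forward-strand counts and 1785 in its own groups. For the difference of guide effects it went from 224 to 450 with no filter, 106 on forward-strand counts and 400 with the replicate block. Between activators it went from 1276 to 2968 in the own groups with non-targeting guides, and from 711 to 444 on forward-strand counts and 317 in the own groups with Tet guides. Among the 33 genes, the count with dCasMINI-VPR went from 1 to 2 under library size scaling, 3 with no filter, 0 on forward-strand counts, 0 in the own groups, 3 with the replicate block (also within activator) and 3 with the trend removed. With dCas12a-VPR it went from 11 to 7 on forward-strand counts. For the difference it went from 3 to 0 on forward-strand counts and 1 with the trend removed. With non-targeting guides it went from 7 to 18 in the own groups, and with Tet guides from 0 to 1 under library size scaling, 2 with no filter, 3 with the replicate block and 3 with the trend removed. The cause of these moves was not tested.

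Leaving out 1 library at a time gave, in the same order of contrasts, 50 to 1475, 135 to 1965, 28 to 1835, 333 to 2143 and 331 to 2150 genes, and 0 to 6, 2 to 16, 0 to 11, 2 to 12 and 0 to 8 of the 33; a group then left with 1 library is assumed to vary like the others. Library size scaling moved the split of higher to lower genes from 78 and 54 to 68 and 80 with dCasMINI-VPR, from 592 and 457 to 432 and 602 with dCas12a-VPR and from 279 and 432 to 186 and 464 with Tet guides, and DESeq2 moved that of the difference from 84 and 140 to 143 and 156. Replicate numbers paired the libraries weakly and unevenly. Deviations of same-numbered libraries correlated at 0.07 within dCasMINI-VPR and 0.11 within dCas12a-VPR (10170 genes). The correlation was 0.24 between the sgTet and crTet libraries and -0.12 between sgNT and crTet. With the replicate block 174, 1255, 400, 1453 and 894 genes were called. Depth limits DERL3 most, with 65 to 87 reads a group.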
